A study of Homo sapiens with 6 samples.

Results

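Expression of 60 genes of the cell cycle and mitosis was followed in SK-MEL-28, an established human melanoma cell line. The genes were taken by symbol from the count table of 60504 genes. They comprise cyclins, cyclin-dependent kinases (CDKs) and their inhibitors except CDKN1A, the retinoblastoma family, E2F factors, and genes of DNA replication, spindle and kinetochore. All 60 symbols were present, and 59 passed the filter on low counts that left 16195 genes for testing. The exception was CCND2, a D-type cyclin, which did not exceed 0.0904 CPM (counts scaled to the TMM-normalized library size) in any library and lay under the level of 3 counts.

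RNA-seq was performed on 3 libraries labelled EV, from control cells that received the empty plasmid, and 3 libraries labelled HDAC8, from cells that received a plasmid for the lysine deacetylase HDAC8. Both plasmids were introduced with a lipid reagent, and the cells of both groups were then kept under hygromycin, so that drug selection is shared by the controls. The labels number the samples as biological replicates, whereas the study's methods except RNA-seq from the assays that were repeated independently, and separate cultures are not described. The p-values therefore measure only the spread between these libraries, which may be technical. The growth notes describe melanoma cells harvested before confluence, and neither synchronization nor the share of cells in each phase is given in the sources used here. Library totals lay between 20850018 and 29822917 counts, mitochondrial transcripts made up 1.18 to 1.54% of them, and 3 counts corresponded to 0.102 to 0.148 CPM. Melanocyte markers were abundant, with a summed level of 6148 to 6515 CPM in the EV libraries and 7346 to 7866 CPM in the HDAC8 libraries over 6 genes. Most of this sum was PMEL, and the list did not move as a whole: PMEL, TYR, SOX10 and TYRP1 rose, MITF fell (log2 fold change -0.14, adjusted p = 0.0263) and MLANA was not called (-0.08, adjusted p = 0.340), with TYRP1 at only 0.380 and 1.30 CPM on average. The leukocyte and epithelial lists summed to at most 0.244 CPM in any library, and the endothelial list summed to 2.76 to 3.70 CPM, most of it from VWF.

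HDAC8, the introduced gene, was examined first. Its level was 16.6, 15.2 and 11.8 CPM in the EV libraries and 14.2, 15.2 and 13.5 CPM in the HDAC8 libraries. The groups overlapped, and the log2 fold change was -0.02 (SE 0.13, adjusted p = 0.924, edgeR quasi-likelihood test with Benjamini-Hochberg adjustment over all tested genes). Whether transcripts of the plasmid were counted on this gene is not given in the sources used here. The level of HDAC8 therefore does not check the labels, and directions below refer to the label HDAC8 relative to the label EV.

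Cells pass from G1 into S phase when D-type cyclins with CDK4 or CDK6, and then E-type cyclins with CDK2, phosphorylate the retinoblastoma proteins and release E2F factors, which switch on the genes for DNA replication. Replication origins are licensed in G1 by loading the MCM helicase and are fired in S phase. Later, FOXM1 and MYBL2 act with the DREAM-related complexes on genes of G2 and mitosis, where cyclin B with CDK1, the Aurora and Polo-like kinases and the spindle checkpoint govern chromosome segregation.

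Promoters of these genes are known for short elements that differ by phase, and 6 are shown as examples of these elements in genes that rose or fell. They were chosen after their motifs were seen. CDC20, CCNB2 and PLK1 are mitotic genes that were higher in the HDAC8 libraries, while MCM6, PCNA and E2F1 are replication genes or regulators that were lower. Each sequence is the 120 bases before a RefSeq start site, read on the strand of the gene from the GRCh38.p14 promoter table, at chr1:43358861-43358980 (plus strand) for CDC20, chr15:59105026-59105145 (plus) for CCNB2, chr16:23678769-23678888 (plus) for PLK1, chr2:135876444-135876563 (minus) for MCM6, chr20:5126623-5126742 (minus) for PCNA and chr20:33686386-33686505 (minus) for E2F1. Capitals mark matches on either strand to an E2F motif (TTTNNCGC), to the cell cycle genes homology region or CHR (TTTGAA), or to the CCAAT box (CCAAT), and overlapping matches run together.
CDC20: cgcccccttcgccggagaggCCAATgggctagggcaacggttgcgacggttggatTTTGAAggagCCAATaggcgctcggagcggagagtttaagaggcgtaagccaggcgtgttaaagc
CCNB2: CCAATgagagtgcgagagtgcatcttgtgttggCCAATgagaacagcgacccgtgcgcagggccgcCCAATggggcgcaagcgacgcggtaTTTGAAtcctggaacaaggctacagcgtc
PLK1: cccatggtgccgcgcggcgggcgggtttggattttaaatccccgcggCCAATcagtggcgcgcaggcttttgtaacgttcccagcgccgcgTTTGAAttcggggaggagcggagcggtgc
MCM6: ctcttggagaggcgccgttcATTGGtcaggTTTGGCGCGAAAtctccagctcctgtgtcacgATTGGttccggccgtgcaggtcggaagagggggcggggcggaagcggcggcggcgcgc
PCNA: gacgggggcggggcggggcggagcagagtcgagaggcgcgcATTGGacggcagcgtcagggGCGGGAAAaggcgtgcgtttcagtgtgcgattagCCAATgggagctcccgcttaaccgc
E2F1: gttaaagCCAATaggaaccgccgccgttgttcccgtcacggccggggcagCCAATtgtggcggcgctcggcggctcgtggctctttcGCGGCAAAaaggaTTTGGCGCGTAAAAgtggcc

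The 3 mitotic promoters each hold a TTTGAA match and at least 1 CCAAT box and no E2F match in these bases. The 3 replication-phase promoters each hold an E2F match and no TTTGAA match. These examples are not typical of every gene. Over the same 120 bases, 13 of the 18 genes that fell and had a window held no TTTNNCGC match. Among them were CDK6, CCNE1, MCM2, MCM3, CDC6 and RRM2. Likewise 7 of the 13 genes that rose held no TTTGAA match, among them KIF20A, CCNB1, CCNA2 and TOP2A. CDK1 held both motifs, and a second window of PCNA held no E2F match. Only the letters given above were searched, so other forms of the CHR or of the E2F site were not counted.

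Across the 59 tested genes, those that act in G1 and S phase and those that act in G2 and mitosis lay on opposite sides. The genes and their phases were chosen with earlier results of these data known, so the counts describe this list only. In the HDAC8 libraries 18 genes rose (30.5%) and 23 fell (39.0%) at an adjusted p below 0.05 in the edgeR quasi-likelihood test, while 18 were not called. Among all 16195 tested genes, 11.1% rose and 11.7% fell by the same rule. Of the 36 tested genes of G1, the G1/S transition and S phase, 23 fell and 1 rose (CDK2), with a median log2 fold change of -0.31 and a negative value in 33. Of the 23 genes of G2/M and mitosis, 17 rose and 0 fell, with a median of 0.32 and a positive value in 22. For the latter, 0 genes were lower at an unadjusted p below 0.05 and 0 were called lower by DESeq2. The median over all tested genes was 0.01, with 8330 positive and 7865 negative values, and over the 59 genes together it was -0.06. In RNA from whole cultures, a different share of cells in a phase and a different amount of RNA per cell cannot be told apart.

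**Figure D1:**
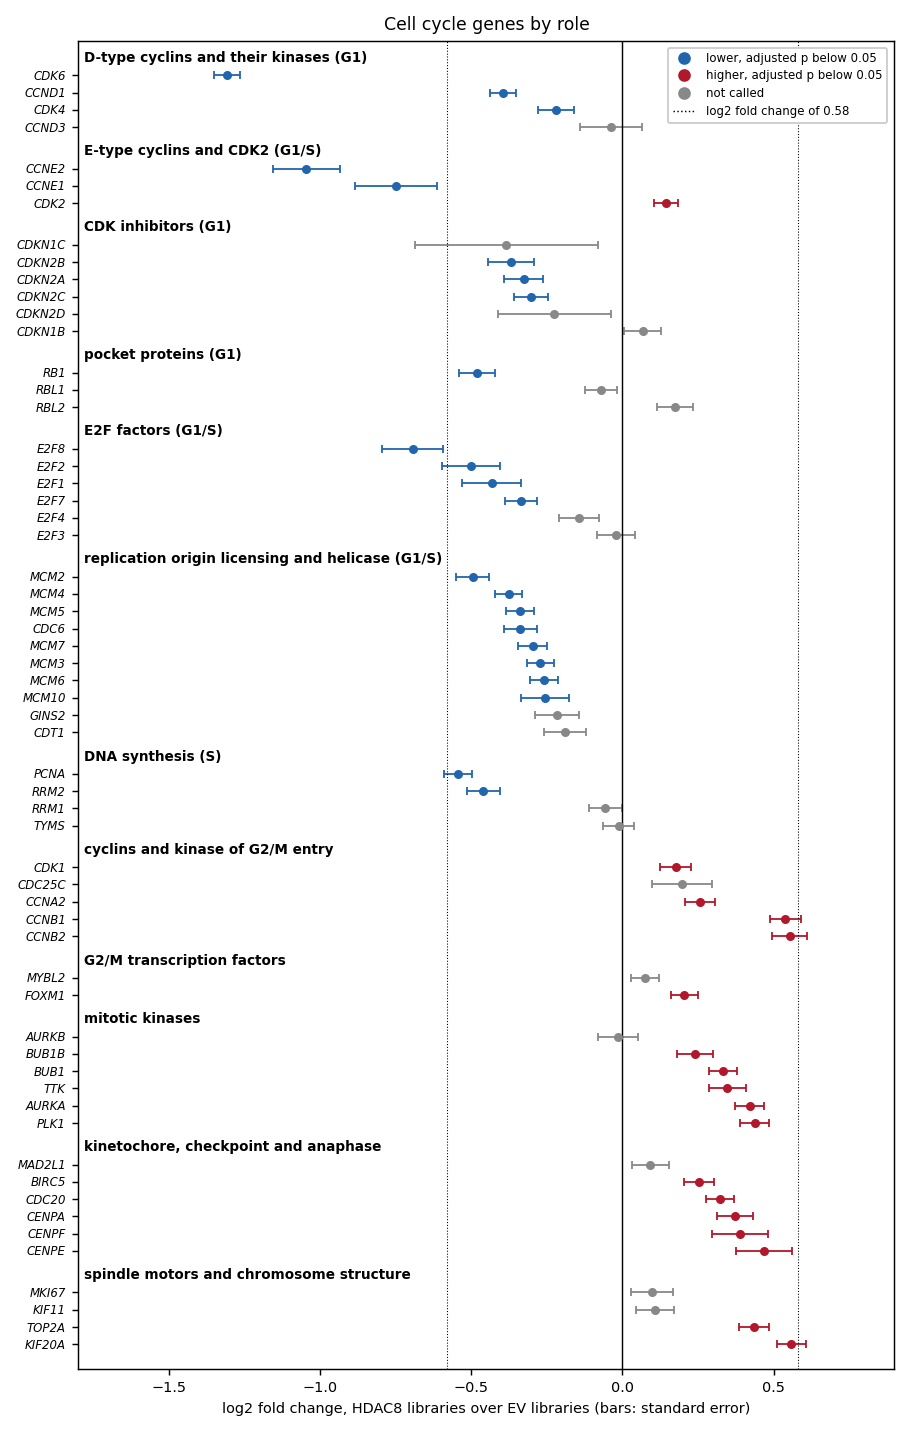
Each point is the log2 fold change of 1 gene, HDAC8 label relative to EV label (x axis), with bars of 1 standard error, grouped by role, and dotted lines mark a log2 fold change of 0.58 in either direction. Blue points (23 genes, lower) fill the upper panels for G1 and S phase and red points (18 genes, higher) the lower panels for G2/M and mitosis, with CDK2 the exception.

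Most of these differences were modest in size. With the thresholds of the study's methods, that is, an adjusted p below 0.05 together with a log2 difference no smaller than 0.58 in either direction, 4 genes were lower (CDK6, CCNE2, CCNE1 and E2F8) and 0 were higher. No gene was higher past this fold at an unadjusted p below 0.05 or in DESeq2, where the counts were 0 and 0. Among all tested genes 4.07% were higher and 3.45% lower past both thresholds. In 21 genes every HDAC8 library lay above every EV library, and in 25 every HDAC8 library lay below, compared with 18.7% and 19.4% of all tested genes, so 35.6% and 42.4% of the 59 genes did not overlap in these directions.

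The split by phase was also present library by library. For each gene, log2 CPM was expressed as a deviation from its mean over the 6 libraries, and the median was taken over the genes of a phase. The 19 G1/S genes gave 0.164, 0.122 and 0.188 in the EV libraries and -0.144, -0.152 and -0.171 in the HDAC8 libraries. The 16 genes of mitosis gave -0.176, -0.168 and -0.175 in the EV libraries and 0.190, 0.177 and 0.122 in the HDAC8 libraries. All 5 phases separated the 3 EV libraries from the 3 HDAC8 libraries without overlap. The 13 G1 genes came nearest to overlap, because EV replicate 2 had a median of 0.015 while the highest HDAC8 library was at -0.108. Since each deviation is taken within these 6 libraries, the medians describe the same differences as the fold changes and are not a separate test.

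**Figure D2:**
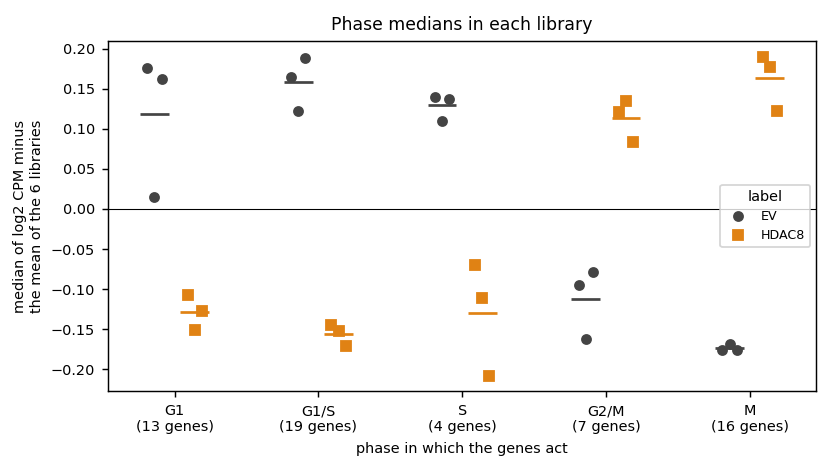
Points are the median over the tested genes of a phase (x axis) of log2 CPM minus the gene's mean of the 6 libraries (y axis), 1 point per library, with a line at the mean of each label. The EV libraries lie above the HDAC8 libraries in G1, G1/S and S and below them in G2/M and M, where the HDAC8 libraries reach 0.190.

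Among the D-type cyclins and their kinases, which drive G1, 3 of 4 tested genes fell. CDK6 (ENSG00000105810; chromosome 7, 92604921 to 92836573, minus strand, GENCODE 44 on GRCh38) had 429, 428 and 427 CPM in the EV libraries and 177, 168 and 173 CPM in the HDAC8 libraries. All EV libraries were far above all HDAC8 libraries, and with a log2 fold change of -1.31 (SE 0.043, adjusted p = 2.21e-09) CDK6 had the lowest value of the 59 genes. CCND1, cyclin D1, had 974, 911 and 969 CPM in the EV libraries and 702, 736 and 731 CPM in the HDAC8 libraries. The groups did not overlap, and the level fell by 24.0% (log2 fold change -0.40, SE 0.043, adjusted p = 3.95e-05). CDK4, the other partner of the D-type cyclins, had 197, 175 and 193 CPM against 152, 170.0 and 163 CPM. Its EV replicate 2 was only slightly above HDAC8 replicate 2, and the log2 fold change was -0.22 (adjusted p = 0.0188). This call was lost without EV replicate 1, without EV replicate 3 and without HDAC8 replicate 1 (adjusted p = 0.0965, 0.0904 and 0.0527). CCND3, cyclin D3, overlapped between the groups at 41.1 to 49.6 CPM and 39.5 to 51.4 CPM, with a log2 fold change of -0.04 (adjusted p = 0.848).

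The E-type cyclins, which activate CDK2 at the G1/S transition, were both lower in the HDAC8 libraries. CCNE2 had 28.9, 29.0 and 27.2 CPM in the EV libraries and 15.6, 14.2 and 11.3 CPM in the HDAC8 libraries. The groups were well apart, and the log2 fold change was -1.05 (SE 0.11, adjusted p = 3.46e-05). CCNE1 had 9.93, 10.6 and 9.56 CPM in the EV libraries and 6.01, 5.63 and 6.25 CPM in the HDAC8 libraries. It also separated fully, with a log2 fold change of -0.75 (SE 0.13, adjusted p = 0.00175). CDK2, their kinase, moved the other way, from 823, 816 and 814 CPM to 888, 888 and 938 CPM. The groups did not overlap, but the log2 fold change was only 0.15 (SE 0.040, adjusted p = 0.0205). The CDK2 call was lost with no filter on low counts (adjusted p = 0.0546), with the replicate block (0.0704) and without EV replicate 1 (0.0651), EV replicate 3 (0.0907) or HDAC8 replicate 2 (0.0517). CDK2 shares 565 exonic bases with a long non-coding RNA and 89 with PMEL, both on the opposite strand. PMEL, a melanocyte gene, averaged 4149 CPM in the EV libraries and 5254 CPM in the HDAC8 libraries, and its part in the CDK2 value was not tested.

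**Figure D3:**
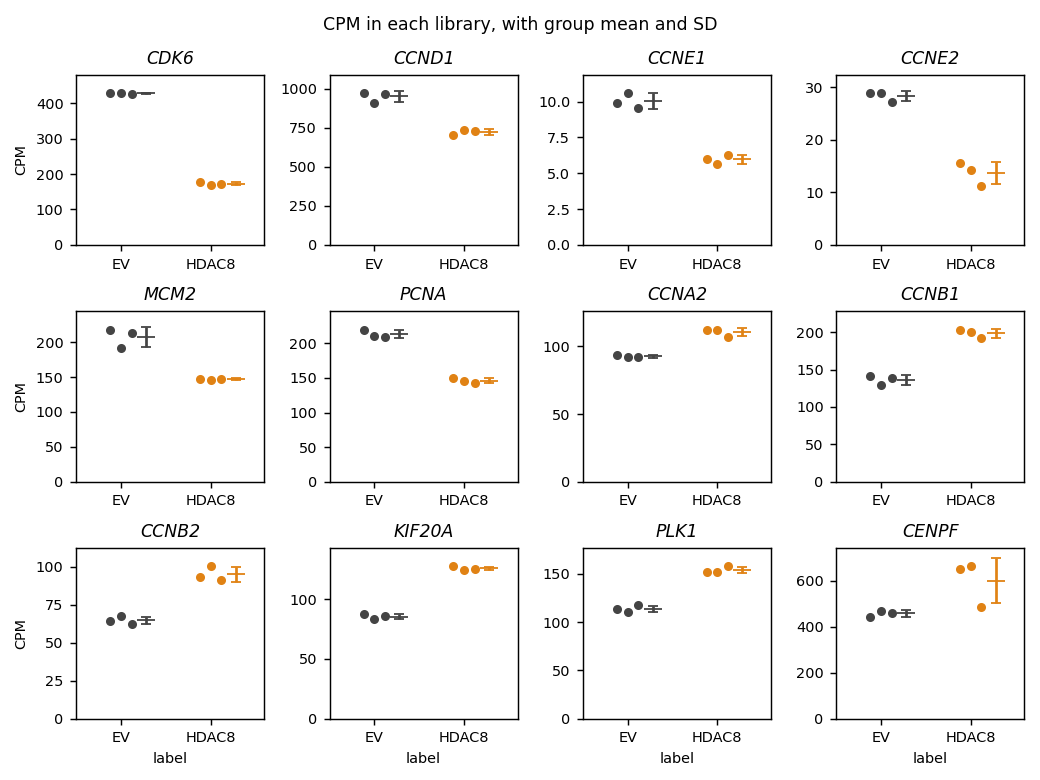
Points are CPM (y axis, from 0) of 12 genes in each library by label (x axis), with a bar for the group mean and SD (n = 3). CDK6, CCND1, CCNE1, CCNE2, MCM2 and PCNA lie lower in the libraries labelled HDAC8 and CCNA2, CCNB1, CCNB2, KIF20A, PLK1 and CENPF higher, with HDAC8 replicate 3 at 487 CPM for CENPF.

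CDK inhibitors, which restrain these kinases, were lower or not called. The INK4 genes are named for proteins that bind CDK4 and CDK6, and 3 of 4 fell. Counts are per gene, so transcripts of CDKN2A from different starts were not told apart. CDKN2A had 88.5, 83.5 and 85.9 CPM in the EV libraries and 64.7, 74.5 and 66.6 CPM in the HDAC8 libraries. CDKN2B had 40.1, 41.3 and 43.0 CPM against 33.8, 29.1 and 33.4 CPM, and CDKN2C had 63.7, 62.3 and 65.2 CPM against 52.9, 51.7 and 50.5 CPM. None of the 3 overlapped between the groups, and their log2 fold changes were -0.33 (adjusted p = 0.00314), -0.37 (0.00434) and -0.30 (0.00231). CDKN2A and CDKN2B are neighbours on chromosome 9, and CDKN2A shares 593 exonic bases with the antisense RNA CDKN2B-AS1. The fourth INK4 gene, CDKN2D, was at 4.49 to 7.66 CPM over all libraries, with a log2 fold change of -0.23 (adjusted p = 0.442). Of the Cip/Kip family, which also binds CDK2, CDKN1B had a log2 fold change of 0.07 (adjusted p = 0.489) and CDKN1C, at 1.47 to 3.48 CPM, -0.38 (SE 0.30, adjusted p = 0.416).

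The pocket proteins bind and silence E2F factors, and of the 3 genes RB1 alone was called. RB1 had 99.9, 95.3 and 99.0 CPM in the EV libraries and 75.1, 68.9 and 66.5 CPM in the HDAC8 libraries, without overlap, and fell by 0.48 on the log2 scale (SE 0.060, adjusted p = 0.000125). RBL1 had a log2 fold change of -0.07 (adjusted p = 0.379). RBL2, which is associated with quiescence, had 69.5, 66.5 and 64.2 CPM against 73.0, 78.4 and 74.4 CPM. Its groups did not overlap, and its log2 fold change of 0.17 (SE 0.058, adjusted p = 0.0510) passed the threshold under upper-quartile normalization (0.0374) and with at least 10 counts in every library (0.0461).

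Of the 6 E2F factors 4 fell, among them activators and repressors. E2F1, an activator of replication genes, had 57.6, 51.5 and 58.3 CPM in the EV libraries and 41.8, 35.0 and 47.1 CPM in the HDAC8 libraries. E2F2, a second activator, had 49.3, 43.3 and 49.2 CPM against 37.5, 28.7 and 33.7 CPM. In both genes HDAC8 replicates differed widely but stayed below the EV libraries, with log2 fold changes of -0.43 (SE 0.097, adjusted p = 0.00706) and -0.50 (SE 0.096, adjusted p = 0.00262). The atypical repressor E2F8 had 22.3, 21.2 and 21.3 CPM in the EV libraries and 15.0, 12.7 and 12.2 CPM in the HDAC8 libraries. E2F8 separated clearly, at a log2 fold change of -0.69 (SE 0.10, adjusted p = 0.000392), and its partner E2F7 fell from 83.7, 83.5 and 81.3 CPM to 66.8, 63.9 and 66.1 CPM (log2 fold change -0.34, adjusted p = 0.000724). E2F3 (-0.02, adjusted p = 0.855) and E2F4 (-0.14, adjusted p = 0.153) overlapped between the groups.

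Licensing and helicase genes were lower in 8 of 10 cases, and all 6 subunits of the MCM2 to MCM7 helicase, the ring that unwinds DNA at the fork, fell together. MCM2 had 218, 191 and 214 CPM in the EV libraries and 148, 146 and 148 CPM in the HDAC8 libraries. MCM4 had 416, 387 and 412 CPM against 308, 320.1 and 309 CPM. No HDAC8 library reached the lowest EV library for any of the 6 subunits, and their log2 fold changes lay between -0.50 (MCM2, SE 0.055, adjusted p = 5.09e-05) and -0.26 (MCM6, adjusted p = 0.00163), with a median of -0.32. MCM3 (-0.27), MCM7 (-0.30), MCM5 (-0.34) and MCM4 (-0.38) lay within that range, with adjusted p of 0.00112, 0.000747, 0.000214 and 9.10e-05. MCM3 fell from 220.5, 217 and 219 CPM to 174, 183 and 186 CPM, and MCM5 from 244, 249 and 248 CPM to 199, 199.9 and 187 CPM. MCM6 fell from 200.4, 192 and 191 CPM to 165, 164 and 158 CPM, and MCM7 from 300, 286 and 305 CPM to 232, 243 and 249.9 CPM. In each of these 4 genes the HDAC8 libraries lay below the EV libraries without overlap. CDC6, which loads the helicase, fell from 104, 105 and 107 CPM to 87.3, 84.5 and 78.4 CPM (log2 fold change -0.34, adjusted p = 0.00102). MCM10, needed for firing, had 47.2, 51.3 and 48.9 CPM against 45.5, 40.9 and 36.8 CPM, and its log2 fold change of -0.26 (adjusted p = 0.0397) missed the threshold with the replicate block (0.0553) and without any 1 of 5 libraries (0.0726 to 0.134). The licensing factor CDT1 (-0.19, adjusted p = 0.0783) and the helicase cofactor GINS2 (-0.22, adjusted p = 0.0515) were not called, although 2 of the alternatives called CDT1 and 3 called GINS2.

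DNA synthesis genes were divided. PCNA, the sliding clamp of the polymerases, had 219.8, 210.3 and 209 CPM in the EV libraries and 150, 145 and 143 CPM in the HDAC8 libraries. RRM2, the regulated subunit of ribonucleotide reductase, had 337, 309 and 335 CPM against 247, 246 and 221 CPM. Both separated fully, with log2 fold changes of -0.54 (SE 0.046, adjusted p = 5.25e-06) and -0.46 (SE 0.055, adjusted p = 9.48e-05). RRM1, the catalytic subunit, and TYMS, which makes thymidylate, overlapped between the groups at -0.06 (adjusted p = 0.525) and -0.01 (adjusted p = 0.904).

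Genes of mitotic entry lay on the higher side. CCNB1, cyclin B1, had 141, 129 and 139 CPM in the EV libraries and 203, 199.6 and 192 CPM in the HDAC8 libraries. CCNB2 had 64.1, 67.4 and 62.5 CPM against 93.0, 100.2 and 91.5 CPM. Each HDAC8 library exceeded every EV library in both genes, and the levels rose by 45.3% and 46.7% (log2 fold changes 0.54 and 0.55, adjusted p = 1.36e-05 and 3.61e-05). CCNA2, cyclin A2, which serves S phase and G2, rose from 93.6, 92.0 and 91.9 CPM to 112, 112 and 107 CPM (log2 fold change 0.26, SE 0.049, adjusted p = 0.00269). Their kinase CDK1 had 117, 116 and 119.7 CPM against 136, 137 and 126 CPM, with a log2 fold change of 0.18 (SE 0.051, adjusted p = 0.0262). The CDK1 groups did not overlap, but its call was lost with the replicate block (adjusted p = 0.0617) and without any library other than HDAC8 replicate 3 (0.0733 to 0.117). The phosphatase CDC25C, which activates CDK1, had a log2 fold change of 0.20 (SE 0.10, adjusted p = 0.189). Of the transcription factors, FOXM1 rose from 219.8, 206 and 218 CPM to 247, 253 and 243 CPM (log2 fold change 0.20, adjusted p = 0.00676), and MYBL2 had a value of 0.07 (adjusted p = 0.297).

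Mitotic kinases rose in 5 of 6 cases. PLK1, a kinase of entry and spindle assembly, had 113, 111 and 117 CPM in the EV libraries and 152, 152 and 158 CPM in the HDAC8 libraries. AURKA, which acts at centrosomes, had 126, 119.7 and 125 CPM against 162, 163 and 171 CPM. Neither gene overlapped between the groups, and their log2 fold changes were 0.44 (SE 0.048, adjusted p = 4.47e-05) and 0.42 (SE 0.048, adjusted p = 6.55e-05). The checkpoint kinases TTK and BUB1 rose by log2 fold changes of 0.35 (adjusted p = 0.00168) and 0.33 (adjusted p = 0.000349). TTK had 55.8, 55.7 and 55.4 CPM against 74.2, 65.6 and 72.3 CPM, and BUB1 had 171, 165 and 159 CPM against 213, 207 and 203 CPM. BUB1B, which inhibits the anaphase promoting complex, had 98.3, 111 and 101 CPM against 126, 124 and 116 CPM. Its log2 fold change was 0.24 (adjusted p = 0.0117), a call lost without EV replicate 1, EV replicate 3 or HDAC8 replicate 2 (0.0726, 0.0665 and 0.0570). AURKB, the kinase of the chromosomal passenger complex, did not follow: it had 107, 114 and 117 CPM against 103, 111 and 122 CPM, and its log2 fold change was -0.01 with a 95% interval from -0.14 to 0.12 (adjusted p = 0.915).

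Kinetochore, checkpoint and anaphase genes rose in 5 of 6 cases. CDC20, which activates the anaphase promoting complex, had 149, 148 and 147 CPM in the EV libraries and 177, 193 and 186 CPM in the HDAC8 libraries. CENPA, the centromeric histone, rose from 45.2, 44.7 and 45.3 CPM to 59.3, 60.0 and 55.9 CPM. Their groups did not overlap, and the log2 fold changes were 0.32 (SE 0.048, adjusted p = 0.000448) and 0.37 (SE 0.059, adjusted p = 0.000742). BIRC5, survivin, rose from 140.5, 136 and 147 CPM to 162, 172 and 170.2 CPM, also without overlap, by a log2 fold change of 0.25 (adjusted p = 0.00323). In the kinetochore genes CENPE and CENPF, HDAC8 replicate 3 stood apart from the other HDAC8 libraries. CENPE had 77.9, 83.2 and 83.5 CPM against 122, 124 and 93.0 CPM, and CENPF had 441, 469 and 461 CPM against 649, 662 and 487 CPM. Both remained free of overlap, with log2 fold changes of 0.47 (SE 0.094, adjusted p = 0.00348) and 0.39 (SE 0.093, adjusted p = 0.00963), and the CENPF call was lost without EV replicate 1 (0.0551) or HDAC8 replicate 2 (0.0529). MAD2L1, the checkpoint protein Mad2, had a log2 fold change of 0.09 (adjusted p = 0.322).

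Among spindle motors and chromosome structure genes, KIF20A, a kinesin of cytokinesis, had 87.3, 83.3 and 85.7 CPM in the EV libraries and 128, 125 and 125 CPM in the HDAC8 libraries. With a log2 fold change of 0.56 (SE 0.049, adjusted p = 6.49e-06) it had the highest value of the 59 genes. TOP2A, which untangles chromosomes, rose from 519, 521 and 524 CPM to 738, 726 and 653 CPM (log2 fold change 0.44, adjusted p = 6.26e-05). MKI67, the Ki-67 proliferation marker, had 536, 604 and 568 CPM against 645, 643 and 538 CPM, and HDAC8 replicate 3 lay among the EV libraries. The spindle motor KIF11 had 138, 139.9 and 133 CPM against 157, 153 and 133 CPM, and HDAC8 replicate 3 lay just below all EV libraries. Their log2 fold changes were 0.10 (adjusted p = 0.368) and 0.11 (adjusted p = 0.272), and 0.17 and 0.17 without HDAC8 replicate 3 (adjusted p = 0.0234 and 0.0164). Over the 18 genes that rose, this library was below HDAC8 replicates 1 and 2 in 11.

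**Figure D4:**
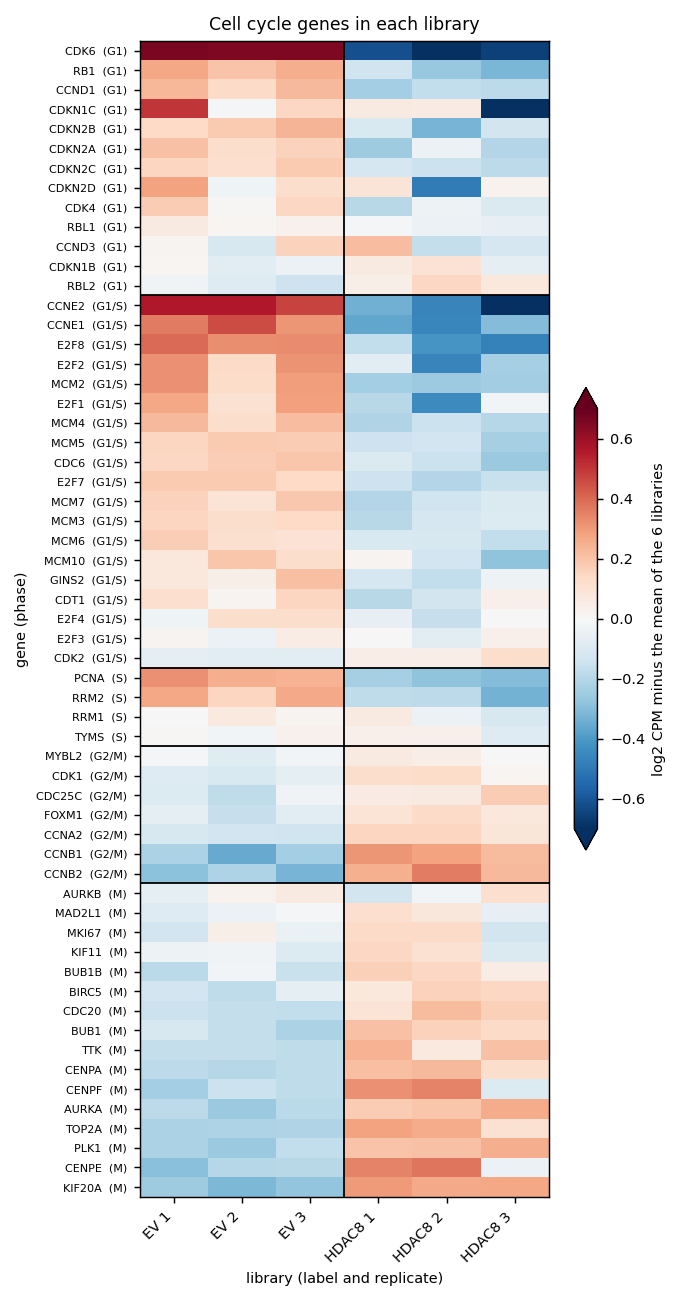
Colour gives log2 CPM minus the gene's mean of the 6 libraries for each tested gene (rows, with its phase) in each library (columns), saturating at 0.7 in either direction. The blocks for G1 to S are mostly red under EV and blue under HDAC8, those for G2/M and M mostly the reverse, and HDAC8 replicate 3 is pale or blue for CENPE, CENPF, KIF11 and MKI67.

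In abundance the genes covered a wide range, which was compared per kilobase of merged exons. CDK2 was highest in the EV libraries at 210 ± 1.2 CPM per kb (SD, n = 3), followed by CCND1 at 200 ± 7.3 and PCNA at 152 ± 4.2. The part in this rank of the genes that overlap CDK2 on the opposite strand, PMEL among them, was not tested. CDK2 and CCND1 differed by little more than their spread, whereas PCNA lay well below both, and TOP2A was next at 81.8 ± 0.36. The order depended on the length used. Per kilobase of the longest transcript, CDK2 (315 CPM per kb) was far above CCND1 (224), and PCNA (157) was followed by CDK4 (101), MCM7 (96.3) and TOP2A (91.6). In the HDAC8 libraries CDK2 was at 233 ± 7.4, CCND1 at 152 ± 3.8 and TOP2A at 111 ± 7.3 CPM per kb, and PCNA at 104 ± 2.7 did not differ from TOP2A beyond the spread, again per merged exons. The helicase subunits lay between 34.0 (MCM5) and 60.0 (MCM3) CPM per kb of merged exons in the EV libraries, and between 51.8 (MCM6) and 96.3 (MCM7) with the longest transcript. CDK4 was above CDK6 with both lengths, at 60.8 against 35.0 CPM per kb of merged exons and 101 against 36.7 with the longest transcript. Apart from CCND2 (0.007), the lowest genes per merged exons were CDKN1C (1.16), CDC25C (3.90) and CCNE1 (4.08), and with the longest transcript CDKN1C (1.49), CDKN2D (4.85) and CCNE1 (5.14).

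Exons of 17 of the 60 genes overlap another annotated gene by at least 150 bases, on the opposite strand in 16. Estimated counts that were not whole occurred in 13 of these 16 genes and in 3 of the 43 without such an overlap. The largest overlap among the strongest changes was that of CCNE2 with INTS8, at 1629 bases, and INTS8 had a log2 fold change of -0.08 (adjusted p = 0.412). CDK4 shares 1369 bases with TSPAN31 and CCND1 shares 497 with LTO1, and these neighbours had log2 fold changes of 0.01 (adjusted p = 0.943) and 0.04 (adjusted p = 0.861). AP4M1, which shares 392 bases with MCM7, had -0.31 (adjusted p = 0.102), close to the value of MCM7. CDKN2B-AS1 (-0.37, adjusted p = 0.411, beside CDKN2A) and AKTIP (0.17, adjusted p = 0.411, beside RBL2) also lay close to their genes. ITFG2 (0.04, beside FOXM1), EXOSC9 (0.01, beside CCNA2) and FAM53C (-0.11, beside CDC25C) did not. The part of such overlaps in these values was not tested. CDK6, CCNE1 and E2F8 have no such overlap. The genes nearby on the chromosome were also examined, as the median log2 fold change of the 20 nearest tested genes with at least 10 CPM. This median was within 0.2 of 0 for 57 of the 60 genes, while it was -0.34 around PCNA, -0.28 around RB1 and -0.26 around MCM2. Within that limit it could still be as large as the gene's own value: around CDK2 it was 0.16, with CDK2 at 0.15. It was 0.16 around MAD2L1 (gene 0.09), -0.17 around MCM7 (gene -0.30) and 0.15 around CCNA2 (gene 0.26). Around CDC20 (-0.09) and E2F8 (0.09) its sign was opposite to that of the gene. The part of these neighbourhoods in the levels of the genes was not tested.

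Promoter sequence, which played no part in grouping the genes, was available for 48 of the 60. RefSeq windows of 300 bases, from 250 before to 50 after each start, were searched on both strands, and a gene was counted if any of its windows held the motif. The CHR letters TTTGAA were present in 12 of 19 G2/M and mitosis genes (63.2%) and in 3 of 29 G1 to S genes (10.3%; E2F3, RBL2 and RRM1), compared with 18.2% of all 27305 genes in the table and 1503 of the 10774 that were also tested. The E2F letters TTTNNCGC were present in 14 of 29 G1 to S genes (48.3%) and in 2 of 19 G2/M and mitosis genes (10.5%; CDK1 and CENPA), compared with 8.23% of all genes and 12.8% of those tested. CCAAT occurred in 84.2% of the G2/M and mitosis genes, 58.6% of the G1 to S genes, 39.7% of all genes and 43.1% of those tested. An AP-1 motif, TGANTCA, was found in 1 of the 48 genes (2.08%, compared with 9.37% of all genes and 7.19% of those tested). This gene was RB1, whose only window lies at a start 172706 bases inside the gene. For 9 of the 48 genes, among them RB1, CENPA, KIF11 and PLK1, the nearest RefSeq start in the table lay over 1000 bases from the outermost GENCODE start, and sequence at the outermost start was not searched.

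By direction of change, CHR letters stood in the windows of 8 of the 13 genes that rose and had a window, and in 0 of the 18 that fell. E2F letters stood in 8 of these 18 and in 2 of these 13, the latter again CDK1 and CENPA. All of these 13 are genes of G2/M or mitosis and all of these 18 are genes of G1 to S. The counts by direction therefore repeat the counts by phase on fewer genes and are not a separate relation. The uncalled genes were mixed, with CHR letters in 7 and E2F letters in 6 of 17, so genes with the same letters differed in their call: MKI67, KIF11 and MAD2L1 hold CHR letters and were not called, and TYMS, RBL1 and CDT1 hold E2F letters and were not called. A match describes the sequence only and does not show that a factor binds there.

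**Figure D5:**
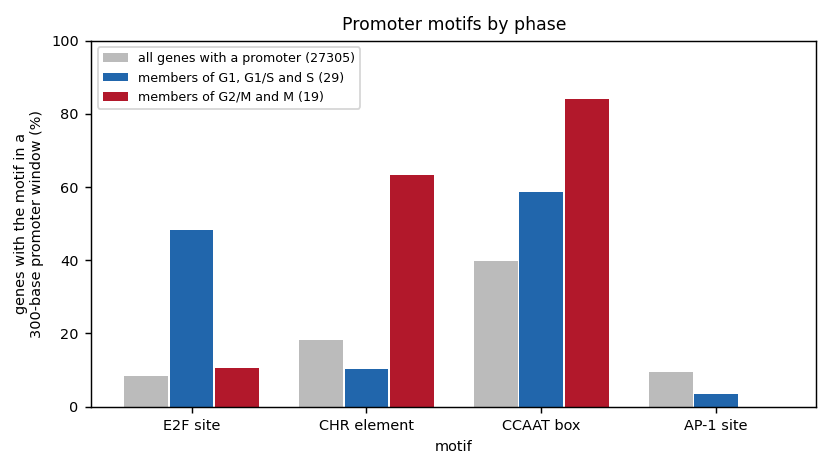
Bars give the percentage of genes (y axis) with each motif (x axis) in a 300-base promoter window, for all genes in the RefSeq table, for the G1 to S genes and for the G2/M and mitosis genes. E2F letters stand in 48.3% of the G1 to S genes and CHR letters in 63.2% of the G2/M and mitosis genes.

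A further list of 137 cell cycle genes that were not among the 60 was examined in the same test. It too was chosen with earlier results of these data known. Of these 35 rose (25.5%, against 11.1% of all tested genes) and 23 fell (16.8%, against 11.7%), with a median log2 fold change of 0.01, as over all genes. Among the spindle, centrosome and cytokinesis genes 17 of 24 rose (70.8%) and 1 fell (ECT2). Among the origin recognition and replisome genes 12 of 38 fell (31.6%), 0 rose and 26 were not called, and the fold change was positive in 7. In the latter group 1 gene was higher at an unadjusted p below 0.05 and 0 were called higher by DESeq2. Of the kinetochore and spindle checkpoint genes 5 of 22 rose (22.7%), and the median log2 fold change was 0.08. Of 15 genes of the anaphase promoting complex and separase 5 rose and 1 fell, and 2 of 6 nucleotide supply genes fell. The remaining groups were mixed. Of 14 other cyclins, CDKs and CDC25 phosphatases 3 rose and 3 fell, the latter including PKMYT1 (-0.34) and CDC25B (-0.28). Condensin and chromosome structure gave 4 higher and 2 lower of 9, and E2F and DREAM partners 1 and 2 of 9. The extremes were on the higher side E2F5 (log2 fold change 0.82, adjusted p = 0.00181), the spindle genes DLGAP5 (0.62, adjusted p = 3.49e-05) and ASPM (0.61, adjusted p = 6.38e-06), and CCNG1, cyclin G1 (0.60, adjusted p = 1.83e-05). On the lower side they were the nucleoside transporter SLC29A1 (-0.48, adjusted p = 0.000747), the E2F partner TFDP1 (-0.42, adjusted p = 0.000180), the cytokinesis factor ECT2 (-0.40, adjusted p = 0.000158) and CDC16, a subunit of the anaphase promoting complex (-0.40, adjusted p = 0.000516). Without EV replicate 3 the counts on this list were 22 higher and 15 lower.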

How the data were processed

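RNA-seq was analysed for 3 SK-MEL-28 libraries labelled EV and 3 labelled HDAC8, grouped by the sample labels. Estimated counts for each Ensembl gene, not normalized, were deposited by the authors, and the labels' processing notes name Trimmomatic, STAR, RSEM, DESeq2 and GRCh38. The annotation and the strand setting of the counting are not given in the sources used here, and the labels and the study's methods name different RNA and library kits. The authors deposited a second table of group values, fold changes and p-values, which was not used. All 6 sample columns were matched to a label, with 0 unmatched.

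Between 5351 and 5685 of the 60504 values in each library were not whole, and all were rounded. Library totals lay between 20850018 and 29822917 counts, and floors of 3 counts cover counting error only. No 2 libraries of a label agreed within sampling noise (chi-square per degree of freedom of 4.53 or more). Over all tested genes this value was 17.2 and 15.1 for HDAC8 replicate 3 with replicates 1 and 2. It was 6.01 for HDAC8 replicates 1 and 2, and 4.53 to 12.1 among the EV libraries. Genes were filtered with filterByExpr, scaled by TMM and tested with the quasi-likelihood test (glmQLFit, glmQLFTest, no block) of edgeR 4.0.16 in R 4.3.3 across 16195 genes, with Benjamini-Hochberg adjustment and a threshold of 0.05. Standard errors were obtained from the size of the log2 fold change and its F statistic, as their ratio after taking the root of F. Alternatives were DESeq2 1.42.0, upper-quartile normalization, other filters on low counts, the replicate number as a block, a log2 fold change of 1, and each library left out. The steps were tested on simulated data with 200 genes changed by a log2 fold change of 1 or 2 in size. At adjusted p below 0.05, edgeR recovered 68 of 100 genes changed by 1 and 82 of 100 changed by 2, with 18 false calls. Of those with at least 10 CPM it recovered 62 of 62 and 61 of 61. Smaller changes, such as most of those above, were not simulated.

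The 60 genes, their roles and phases and the further list of 137 were chosen with earlier results of these data known. Genes named with values are HDAC8, every called gene, the extremes of each role, genes whose call changed under an alternative, untested genes, and the 4 highest and 4 lowest called genes of the further list. Positions and lengths are from GENCODE 44, matched by identifier for all 60 genes. Promoters from the RefSeq GRCh38.p14 table were matched by symbol for 48 genes (65 windows). The genes without an entry were AURKA, BIRC5, CCND1, CCND2, CCNE2, CDK2, CDKN1C, E2F8, FOXM1, MCM4, MCM5 and TTK.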

Additional observations from a re-analysis of the deposited data

How the results depend on the processing

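The counts of 18 higher and 23 lower genes at an adjusted p below 0.05 stayed within 1.5 times under every alternative run, from 14 to 20 and from 21 to 24 when a library was left out and from 16 to 19 and from 22 to 25 otherwise. Of these genes, 14 of the higher and 21 of the lower were called in every alternative, and the others were BUB1B, CDK1, CDK2 and CENPF among the higher and CDK4 and MCM10 among the lower. No pairing of the libraries by the replicate numbers of the labels was seen. Same-numbered libraries deviated from their group means with correlations across genes of -0.107 to -0.042. Because these deviations are taken within each small group, they cannot show whether libraries were prepared in pairs. The replicate block gave 16 higher and 22 lower genes.

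Past the fold threshold of 0.58, 0 to 1 genes were higher and 4 to 5 lower when a library was left out, the 1 higher gene without EV replicate 2 or without HDAC8 replicate 3. At a log2 fold change of 1, 0 were higher and 2 lower (CDK6 and CCNE2). The median log2 fold change of the 59 genes ranged from -0.110 to -0.0589 with a library left out. For the genes of G1 to S it ranged from -0.34 to -0.30, and was -0.33 with no filter on low counts, where CCND2 enters. For the genes of G2/M and mitosis it ranged from 0.28 to 0.33. On the further list of 137 genes, 22 to 41 were higher and 15 to 28 lower with a library left out, and the replicate block gave 32 and 16.

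HDAC8 itself changed sign around 0, from -0.158 to 0.0797 with a library left out, being positive without EV replicate 1, EV replicate 2 or HDAC8 replicate 3. The log2 fold changes of CCND3 (-0.174 to 0.0353), E2F3 (-0.0527 to 0.000326), TYMS (-0.0408 to 0.0204) and AURKB (-0.0892 to 0.0405) also changed sign over these fits, without passing the test threshold in any of them. The cause was not tested.

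The median level per kilobase over the 60 genes in the EV libraries was 23.3 CPM with merged exons and 27.9 CPM with the longest transcript. With only the 250 bases before the start searched, the share of the 48 genes with E2F letters was 29.2% in place of 33.3% and that with CHR letters was 12 genes in place of 15. With 3 libraries a label, genes near the threshold such as RBL2, GINS2 and CDT1 depend on a single library, a filter or the scaling. The lowest tested gene, CDKN1C, had at least 34 counts in each library.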
